A study of Mus musculus with 3 samples.

Results

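The genes described here are 6 markers of regulatory T cells: Foxp3, Gpr83, Izumo1r, Lrrc32, Capg and Socs2. They were taken by name from the platform's annotation, in which 7 probe sets carry these symbols, out of 35556 probe sets on the array and 19938 genes with a probe set of a single symbol. RNA of mouse thymocytes, the T cells developing in the thymus, was measured on 3 arrays, 1 per genotype: WT at 12 weeks of age, β-catenin transgenic at 16 weeks, and without the transcription factor TCF-1 (TCF-1-/-, called TCF-1-deficient) at 8 weeks. The labels name no sort or gate, no strain and no transgene promoter, and do not say whether animals were pooled. Age and genotype cannot be told apart. With 1 array per genotype no value below has an error, a replicate check or a test. The values are the deposited levels, taken as log2 values, and a gene is called higher or lower where 2 arrays differ by at least 1 on that scale, which is 2-fold.

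Regulatory T cells are CD4+ T cells that restrain immune responses, and many of them arise in the thymus from CD4 single-positive cells. Their identity depends on FOXP3, a forkhead transcription factor, and on signals of the cytokine IL-2 through its receptor and STAT5. TCF-1 is a DNA-binding partner of β-catenin in the Wnt pathway. The share of regulatory T cells in these samples was not measured, and a change in their number and a change in RNA per cell cannot be told apart.

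Of the 6 genes, Gpr83 and Izumo1r were at least 2-fold higher without TCF-1 than in WT, and none was lower. The transgenic array had none of the 6 beyond 2-fold of WT in either direction. Foxp3 itself had the same deposited value on all 3 arrays. Over all 19938 genes, 1.33% were at least 2-fold higher and 2.62% at least 2-fold lower without TCF-1 than in WT, which is 266 and 523 genes, or 364 and 405 with each array centred on its median over all probe sets. With the transgene 0.15% were higher and 0.0953% lower than WT. The median difference over the 6 genes was 0.43 for TCF-1-deficient minus WT and -0.039 for transgenic minus WT, and the median over all genes was 0 in both. The genes were chosen with results of these arrays known, so these counts and medians describe the choice and support nothing.

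**Figure D1:**
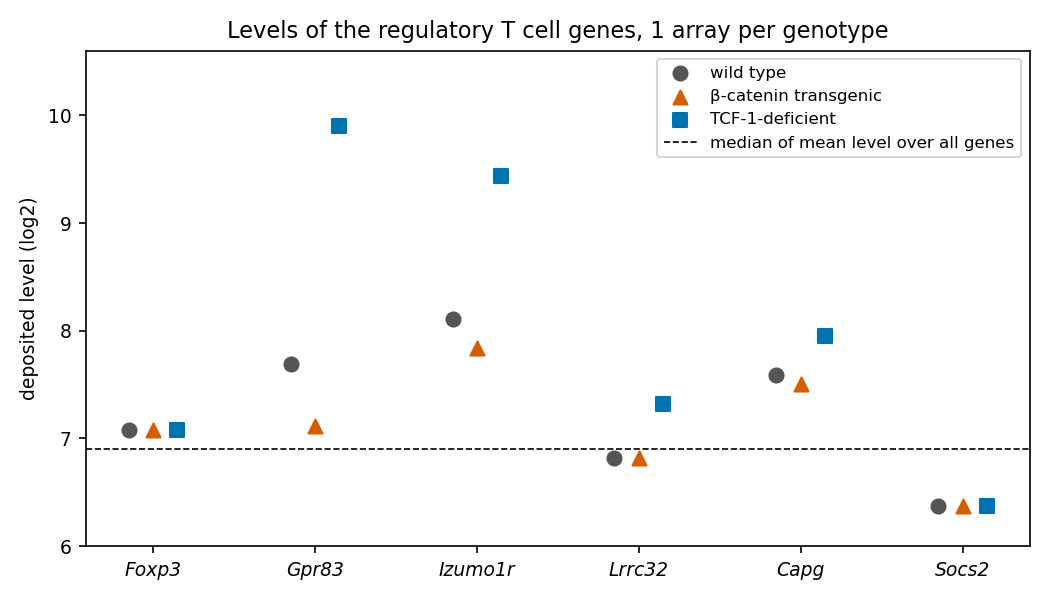
Deposited log2 level (vertical axis) of each of the 6 genes on the WT (circle), transgenic (triangle) and TCF-1-deficient (square) arrays, with 1 point per array and no error. Gpr83 and Izumo1r are highest on the TCF-1-deficient array and lowest on the transgenic array, and the 3 points of Foxp3 lie at 7.08. The dashed line is the median over genes of the mean level, 6.90.

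Gpr83 encodes a G protein-coupled receptor whose RNA is enriched in regulatory T cells. Its level was 7.69 in WT, 7.12 in transgenic and 9.90 in TCF-1-deficient thymocytes. The TCF-1-deficient array was thus the highest and the transgenic array the lowest. The difference from WT was 2.21 (4.62-fold higher) without TCF-1 and -0.57 (1.48-fold lower) with the transgene. Gpr83 ranked 51 from the top of 19938 genes in the first difference and 147 from the bottom in the second. Both differences contain the same WT array. The transgenic array set directly against the TCF-1-deficient array, with no WT value in it, was lower by 2.78 (6.87-fold), at rank 33 from the bottom. In that comparison 1.57% of all genes were at least 2-fold lower and 2.45% at least 2-fold higher, and Gpr83 and Izumo1r were the 2 of the 6 that were lower.

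Izumo1r encodes folate receptor 4, also called Juno, a surface protein of regulatory T cells and of the egg. Its level was 8.11 in WT, 7.84 in transgenic and 9.43 in TCF-1-deficient thymocytes. The order of the arrays was that of Gpr83, with smaller steps. Izumo1r was 1.32 higher than WT without TCF-1 (2.50-fold, rank 151 from the top) and 0.27 below WT with the transgene (1.21-fold, rank 827 from the bottom). The transgenic array was 1.60 below the TCF-1-deficient array (3.02-fold, rank 115 from the bottom). Its relatives Folr1 and Folr2, which bind and take up folate, had identical values on all 3 arrays, 5.71 and 5.95, below the median level over genes.

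Gpr83 and Izumo1r share a position that the choice of genes did not use. In the RefSeq gene order of GRCm38.p6 they are direct neighbours on chromosome 9 with no other annotated gene between them, Gpr83 on the plus strand and Izumo1r on the minus strand, so that their 3′ ends face each other. Over the 5 protein-coding genes on either side, 10 in all, TCF-1-deficient minus WT ran from -0.12 (Panx1, a membrane channel) to 0.27 (Fut4, a fucosyltransferase), and transgenic minus WT from -0.021 to 0. Of the 10, 5 were below 6 on every array, 4 of these with identical values on all 3, so that their small differences say little. Over the other 5, TCF-1-deficient minus WT ran from -0.12 to 0.071. Apart from Ankrd49 and Panx1, the flanks had identical values on the WT and transgenic arrays, as 53.3% of all genes did. Such equal values, that of Mre11a among them, do not show that the RNA was the same. The nearest flanks were Mre11a, a DNA repair nuclease, at 8.56 on all 3 arrays, and Panx1, at 9.29 in WT, 9.27 in transgenic and 9.17 in TCF-1-deficient thymocytes. Among 18530 pairs of neighbouring measured protein-coding genes, 15 had both genes higher by at least 2-fold without TCF-1. These pairs held 29 of the 260 such genes with a place in that order (11.2%), so neighbours that were both higher occurred elsewhere as well. Whether signal of the pair is shared between strands was not tested.

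**Figure D2:**
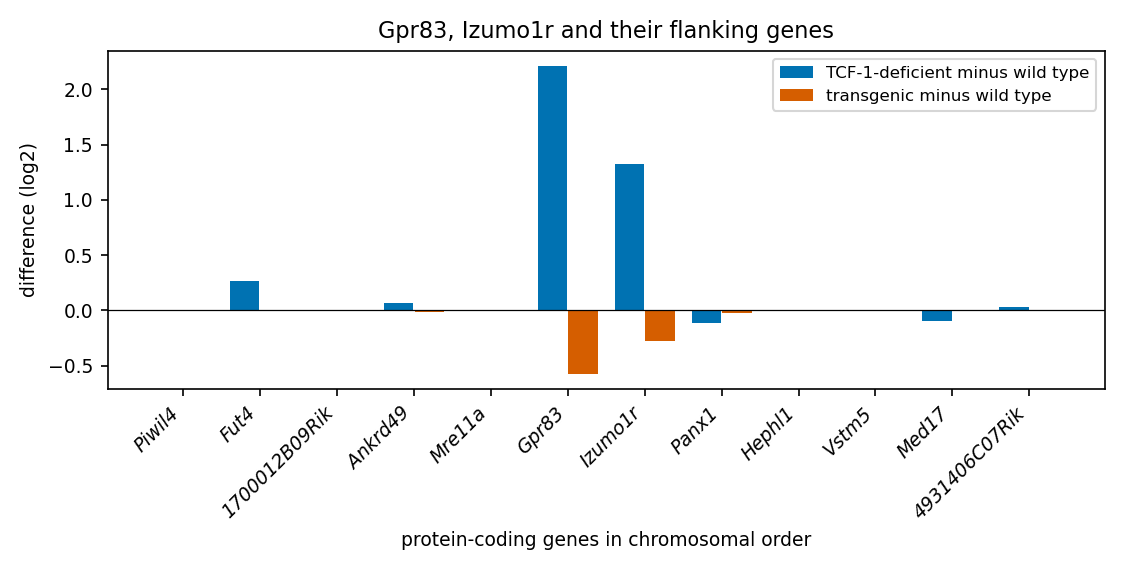
Difference from the WT array on the log2 scale (vertical axis) for Gpr83, Izumo1r and the 5 protein-coding genes on each side, in chromosomal order, with blue bars for TCF-1-deficient and orange bars for transgenic, 1 array each. Gpr83 (2.21 and -0.57) and Izumo1r (1.32 and -0.27) have the longest bars. The flanking genes lie between -0.12 and 0.27, with 5 of the 10 at levels below 6. Apart from Ankrd49 and Panx1, the flanks have identical values on the transgenic and WT arrays, which do not show equal RNA.

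The 250 bases before the RefSeq start of these neighbours are printed to show what precedes the genes whose levels differed, and those of Foxp3 as the gene that defines the cell type. The windows were searched on both strands for the TCF/LEF cores CTTTGA and CTTTGT, the STAT motif TTCNNNGAA and the forkhead motif TGTTTAC, and capitals mark a match. The sequences are from RefSeq (GRCm38.p6): Gpr83 at chr9:14859960-14860209 on the plus strand, Izumo1r at chr9:14903768-14904017 on the minus strand and the first of the pair of Foxp3 starts in the table at chrX:7579426-7579675 on the plus strand, each 5′ to 3′.
Gpr83: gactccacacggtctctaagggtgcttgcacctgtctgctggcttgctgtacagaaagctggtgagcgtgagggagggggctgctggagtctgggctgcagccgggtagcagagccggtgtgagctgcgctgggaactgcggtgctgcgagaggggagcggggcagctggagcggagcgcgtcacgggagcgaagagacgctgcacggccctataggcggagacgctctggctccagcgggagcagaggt
Izumo1r: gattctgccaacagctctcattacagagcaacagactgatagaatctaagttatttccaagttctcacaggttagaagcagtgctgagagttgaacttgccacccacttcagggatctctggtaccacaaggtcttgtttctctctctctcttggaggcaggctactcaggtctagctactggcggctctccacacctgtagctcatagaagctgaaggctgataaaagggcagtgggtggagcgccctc
Foxp3: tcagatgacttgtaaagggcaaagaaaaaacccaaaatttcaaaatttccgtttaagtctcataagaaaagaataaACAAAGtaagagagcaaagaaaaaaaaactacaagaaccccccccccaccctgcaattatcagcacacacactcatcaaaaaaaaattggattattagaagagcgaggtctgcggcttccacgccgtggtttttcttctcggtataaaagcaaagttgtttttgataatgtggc

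None of the 4 motifs was found in the Gpr83 or Izumo1r window. The Foxp3 window held 1 CTTTGT, read on the opposite strand as ACAAAG and beginning 174 bases before the start. The window of the other Foxp3 start held 1 TTCNNNGAA, and that of Capg held none of the motifs. Of all 32851 windows of this length, 13.8% held CTTTGA, 16.5% CTTTGT, 7.02% TTCNNNGAA and 3.17% TGTTTAC. The windows differed in base composition, with 66.8% G and C for Gpr83, 50.0% for Izumo1r and 37.6% for Foxp3, against a median of 52.4% over all windows. A match is a description of these letters, and the arrays hold no measure of binding.

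Foxp3 was at 7.08 in WT, 7.08 in transgenic and 7.08 in TCF-1-deficient thymocytes, equal to the last deposited digit. Over all genes, one value stood for all 3 arrays in 33.6%, for WT and transgenic in 53.3% and for WT and TCF-1-deficient in 36.4%. The share depended on level: of the 2739 genes with a mean level from 7 to 8, as Foxp3, 684 (25.0%) were identical on all arrays, against 63.4% of genes below 5 and 5.18% of genes from 11 up. The equal values of Foxp3 are therefore a common feature of the table at that level and do not show that its RNA was the same in the 3 samples. Foxp3 lies on the X chromosome, and the arrays differed in transcripts of the sex chromosomes: Xist, made from the inactive X of females, was at 12.49 for WT, 12.17 without TCF-1 and 4.86 with the transgene. For the transgenic array, sex, age and genotype cannot be told apart. Of its family, Foxp1, which keeps T cells quiescent, was at 10.76 in WT, 10.48 in transgenic and 9.90 in TCF-1-deficient thymocytes. The largest difference from WT was 0.15 for Foxp2 and -0.042 for Foxp4.

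**Figure D3:**
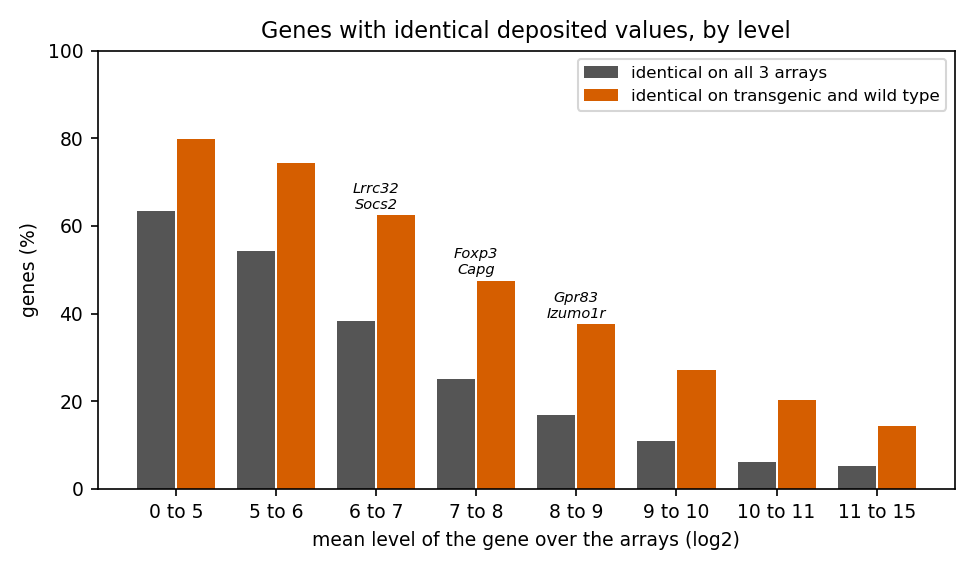
Percent of genes with identical deposited values (vertical axis) by the gene's mean log2 level over the arrays (horizontal axis), with grey bars for all 3 arrays and orange bars for the transgenic and WT arrays. The share falls with level, from 63.4% to 5.18% for all arrays, and the 6 genes are written above the bars of their level, between 6 and 9.

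Lrrc32 encodes GARP, which holds latent TGF-β on the surface of activated regulatory T cells. Its level was 6.82 in WT, 6.82 in transgenic and 7.32 in TCF-1-deficient thymocytes. The TCF-1-deficient array was the highest by 0.50 (1.42-fold), under the 2-fold rule, and was the 1 array on which Lrrc32 reached the median level over genes (6.90). Of the 14 genes listed for GARP and TGF-β activation, Tgfb3, a TGF-β ligand, was higher without TCF-1 by 1.74. Its level was 5.96 in WT, 5.77 in transgenic and 7.70 in TCF-1-deficient thymocytes, and only the last reached 6.90. Tgfbr3, a co-receptor, was lower by 1.95 (8.88 in WT, 6.93 without TCF-1). The other 12, Lrrc32 included, were within 2-fold. Of all genes, 1.33% were higher and 2.62% lower by that rule. Tgfb1, the ligand that GARP presents, was at 10.62 in WT, 10.36 in transgenic and 9.88 in TCF-1-deficient thymocytes. Nrros, the relative of GARP in myeloid cells, had -0.056 as its largest difference from WT.

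Capg encodes a protein that caps actin filaments, made in regulatory T cells and strongly in macrophages. Its level was 7.58 in WT, 7.51 in transgenic and 7.95 in TCF-1-deficient thymocytes. The order of the arrays was again that of Gpr83, but the differences from WT were 0.36 (1.29-fold) and -0.077, both under the 2-fold rule. The second became 0.0015 with each array centred on its median over all probe sets, which moves the median over all genes by 0.13 for TCF-1-deficient minus WT and by 0.079 for transgenic minus WT. Among the 8 gelsolin family genes, Gsn, gelsolin, was lower without TCF-1 by 1.33 (9.02 in WT, 7.69 without TCF-1), and the other 7 were within 2-fold. The mean level of 12 myeloid markers was 6.69 in WT, 6.90 in transgenic and 7.35 in TCF-1-deficient thymocytes. Their median TCF-1-deficient minus WT difference was 0.19, and the largest was 4.01, for Ly86, which weighs most in that mean. Of the 12, 3 were at least 2-fold higher without TCF-1 and 0 lower, against 1.33% and 2.62% of all genes. The 3 were Ly86, which encodes MD-1 (7.48 in WT, 11.50 without TCF-1), Cybb, an NADPH oxidase subunit (7.19 in WT, 8.75 without TCF-1), and Lyz2, lysozyme (8.05 in WT, 9.17 without TCF-1). Itgam (-0.14), Cd68 (-0.11) and Mpeg1 (0.060) also reached 6.90 on at least 1 array, and their TCF-1-deficient minus WT differences were within 2-fold. Of the 12 markers, 6 did not reach 6.90 on any array: Csf1r, Adgre1, Fcgr3, S100a8, S100a9 and Cd14. The part of myeloid cells in the level of Capg was not tested.

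Socs2 encodes a suppressor of cytokine signalling that STAT5 induces. Its probe set with the higher mean was at 6.38 on all 3 arrays, and the other was at 6.26, 6.26 and 6.27 on the WT, transgenic and TCF-1-deficient arrays. Both were below the median level over genes. Of the 8 genes of the family, 4 had identical values on all 3 arrays, Socs2 among them. Socs1, an inhibitor of JAK kinases, was the 1 member beyond 2-fold: it was at 10.25 in WT, 10.25 in transgenic and 8.70 in TCF-1-deficient thymocytes, lower there by 1.55. Of 15 measured genes of the IL-2 receptor and STAT5 pathway, Il2ra was higher and Socs1 lower by at least 2-fold without TCF-1. The other 13 were within 2-fold. Of all genes, 1.33% were higher and 2.62% lower by that rule. Cish, another STAT5-induced gene, was at 6.80 on all arrays. Stat5b, a transcription factor of the pathway, was at 11.16 in WT, 11.54 in transgenic and 10.33 in TCF-1-deficient thymocytes, 1.21 higher with the transgene than without TCF-1.

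Further markers of regulatory T cells differed among themselves. Il2ra encodes CD25, the IL-2 receptor α chain, and was at 10.44 in WT, 9.88 in transgenic and 12.50 in TCF-1-deficient thymocytes. Nrp1, neuropilin-1, a marker of regulatory T cells from the thymus, was at 8.99 in WT, 7.84 in transgenic and 10.70 in TCF-1-deficient thymocytes. Ikzf2 encodes the transcription factor Helios and was at 10.03 in WT, 9.26 in transgenic and 10.78 in TCF-1-deficient thymocytes. These 3 genes followed the order of Gpr83 and Izumo1r, with the TCF-1-deficient array highest and the transgenic array lowest.

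Other markers did not follow that order. Tnfrsf18, the co-stimulatory receptor GITR, was at 8.92 in WT, 8.61 in transgenic and 8.00 in TCF-1-deficient thymocytes. Tnfrsf4, the receptor OX40, was at 8.36 in WT, 7.66 in transgenic and 7.49 in TCF-1-deficient thymocytes. Ctla4, the inhibitory receptor of these cells, was at 7.28 in WT, 7.28 in transgenic and 7.15 in TCF-1-deficient thymocytes. Both TNF receptors were thus highest on the WT array and lowest on the TCF-1-deficient array, and Ctla4 differed by 0.13 at most. Over these 6 markers and the 6 genes above, 4 of 12 were higher by at least 2-fold without TCF-1 (Gpr83, Izumo1r, Il2ra and Nrp1) and 0 lower, while 1, Nrp1, was lower with the transgene. Foxp3 and Ctla4 were not among them. Over all genes 1.33% were higher and 2.62% lower without TCF-1, and 0.0953% were lower with the transgene. The 6 genes were chosen with results of these arrays known, so the count of 12 supports nothing.

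**Figure D4:**
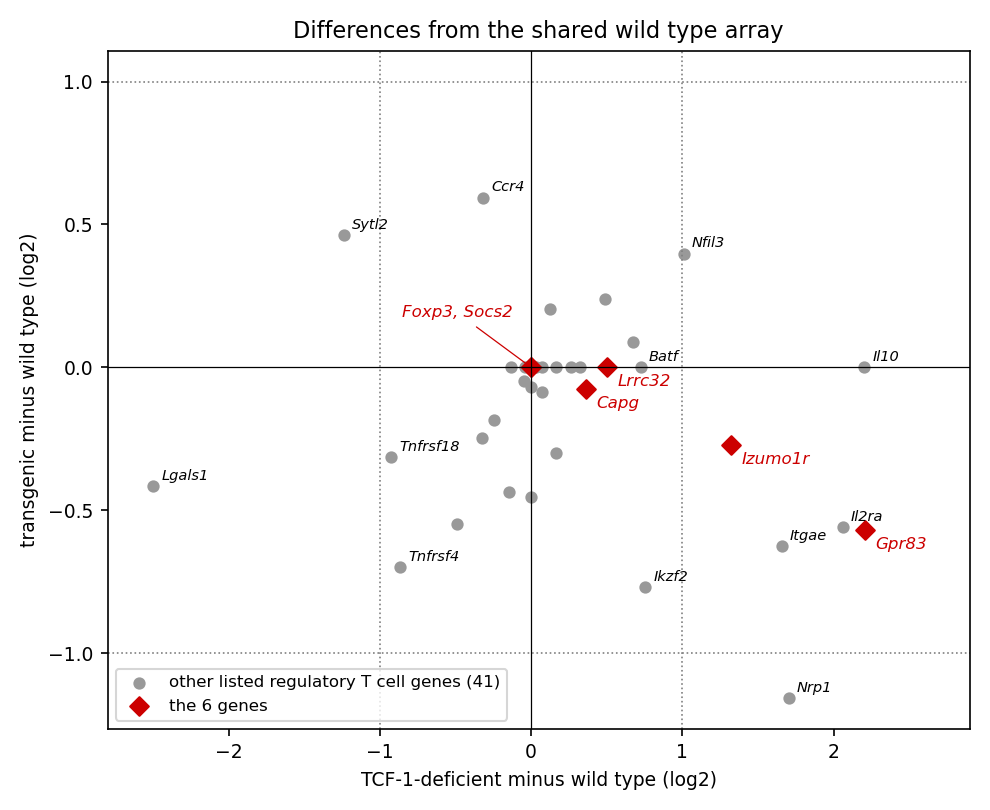
Transgenic minus WT (vertical axis) against TCF-1-deficient minus WT (horizontal axis) on the log2 scale for the 6 genes (red diamonds) and 41 other listed regulatory T cell genes (grey), with dotted lines at 2-fold. Both axes contain the same WT array, so the points are no independent pairs. Gpr83, Il2ra, Itgae and Nrp1 lie to the right and below 0, while Lgals1, Tnfrsf18 and Tnfrsf4 lie to the left and below 0. Sytl2 and Ccr4 lie to the left and above 0, Nfil3 to the right and above 0, and Il10 to the right at 0.

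A wider list of regulatory T cell genes, without the 6, had 41 of 42 genes measured. Without TCF-1, 5 of the 41 lay at least 2-fold above WT and 2 as far below it, and the median difference was 0. The shares over all genes were 1.33% and 2.62%. The higher genes were Il10, an inhibitory cytokine (2.20), Il2ra (2.06), Nrp1 (1.70), Itgae, the integrin chain CD103 (1.66), and Nfil3, a transcription factor (1.01). Itgae was at 7.67 in WT, 7.04 in transgenic and 9.33 in TCF-1-deficient thymocytes. Il10 was at 4.14, 4.14 and 6.34 in that order and, like 16 of the 41 genes in all, stayed below the median level over genes throughout. The lower genes were Lgals1, galectin-1 (-2.50), and Sytl2, which acts in vesicle transport (-1.24). With the transgene, Nrp1 (-1.16) was the 1 of 41 beyond 2-fold of WT, against 0.0953% of all genes lower and 0.15% higher. Of the 41, 19 had a difference of exactly 0, as 53.3% of all genes did, 16 were below 0 and 6 above. Between the mutants, Nrp1 (-2.86), Il2ra (-2.62), Itgae (-2.28), Il10 (-2.20) and Ikzf2 (-1.52) were lower on the transgenic array. Lgals1 (2.08) and Sytl2 (1.70) were higher there. Of all genes, 1.57% were at least 2-fold lower and 2.45% at least 2-fold higher in that comparison.

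Of 32 measured factors known to act on the Foxp3 gene, 7 lay at least 2-fold below WT without TCF-1 and 1 as far above it, with a median of -0.26. The shares over all genes were 2.62% and 1.33%, but that base is unlike. All 32 factors reached the median level over genes, as did 502 of the 523 genes that were lower. With centred arrays 6 of the 32 factors lay below, without Rel (-0.89). The lower genes were Egr2 (-2.29), Nr4a3 (-1.87), Nr4a1 (-1.23) and Nr4a2 (-1.17), which the T cell receptor induces, Satb1, a chromatin organiser (-1.30), Tet2, which removes DNA methylation (-1.24), and Rel, the NF-κB subunit c-Rel (-1.03). Smad3, which carries TGF-β signals, was the higher one (1.17), at 9.75 in WT, 9.60 in transgenic and 10.92 in TCF-1-deficient thymocytes. With the transgene, 0 of 32 were beyond 2-fold of WT, and the median was -0.13. Between the mutants, 5 were at least 2-fold higher and 3 as far lower on the transgenic array, against 2.45% and 1.57% of all genes.

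Markers of other thymocyte stages differed between the same arrays. Beside the counts below, 1.33% of all genes were at least 2-fold higher and 2.62% at least 2-fold lower without TCF-1 than in WT. Of 8 double-negative stage markers, 7 lay at least 2-fold above WT without TCF-1 and 0 as far below it, and their mean level was 8.55 in WT, 8.16 in transgenic and 10.57 in TCF-1-deficient thymocytes, the order of Gpr83. Il2ra is a member of that list as well as of the regulatory T cell list, so its level marks neither cell alone. Of 11 double-positive markers, 10 were lower (9 with centred arrays), with mean levels of 11.95 in WT, 12.00 in transgenic and 10.09 in TCF-1-deficient thymocytes. Of 10 CD4 single-positive markers, 2 were lower and 0 higher, with mean levels of 9.69, 9.37 and 9.21 in that order. The 12 regulatory T cell markers had mean levels of 8.14, 7.77 and 8.72.

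Markers of cells outside the αβ lineage also differed. The shares over all genes without TCF-1 were again 1.33% higher and 2.62% lower. Of 11 markers of γδ, innate-like and NK cells, 4 were higher and 1, Klrb1c, lower without TCF-1, with mean levels of 6.99, 6.88 and 7.65 for WT, transgenic and TCF-1-deficient. With centred arrays Klrb1c was no longer beyond 2-fold (-0.93). Of 9 B lymphocyte markers, 5 were higher and 0 lower, with means of 6.80, 7.10 and 8.28. Blk, a kinase (2.99), is in both lists and counts as higher in each. Of 11 dendritic cell markers, 1 was higher (3 with centred arrays) and 1 was lower, with means of 7.85, 7.96 and 8.06. The lower one was Ccr9, a chemokine receptor that thymocytes also express (13.25 in WT, 11.44 without TCF-1), and without it the means were 7.31, 7.43 and 7.72. The 9 epithelial and stromal and 4 platelet markers had none beyond 2-fold, with means of 6.68, 6.70 and 6.70, and of 6.04 on all arrays. The part of any of these cells in the levels of Gpr83 and Izumo1r was not tested.

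The genes whose pair of differences from WT lay nearest to that of Gpr83, among 9833 named genes reaching the median level over genes on at least 1 array, were Il2ra at a distance of 0.15, Igkv5-43, an immunoglobulin light chain segment, at 0.17 and Trgv1, a γ chain segment of the T cell receptor, at 0.17. Distance is the straight-line distance over the 2 log2 differences, from 3 arrays, and many genes can lie close by it. It reuses the differences given above and is no support for them. Trgv1 was at 9.90 in WT, 9.17 in transgenic and 12.04 in TCF-1-deficient thymocytes. Segments of these families resemble each other and can share signal, so their values are uncertain. Igkv5-43 was at 4.72 in WT, 4.28 in transgenic and 7.04 in TCF-1-deficient thymocytes. It passed the level filter only through the TCF-1-deficient array, where it was high. Nearest to Izumo1r were Slc44a1, a choline transporter, at 0.078, Pip4p2, a lipid phosphatase, at 0.088 and Dap, at 0.098. Gpr83 and Izumo1r were 0.93 apart, and Foxp3 was 2.28 from Gpr83 and 1.35 from Izumo1r.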

How the data were processed

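The deposited log2 values of 3 Affymetrix whole-transcript arrays of total RNA were used. Per the labels' protocols, thymocytes were strained and biotinylated cRNA was prepared. Per the submitters' processing notes, the authors used RMA and Partek; the log base stands in no header, and for versions, settings and build the entry is "not given in the sources used here". Values run from 1.73 to 14.8. Columns of other samples numbered 0. The deposited normalisation was kept.

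Of 35556 probe sets, 21789 had 1 symbol in the platform annotation, 1621 several and 12146 none. For the 999 genes with several probe sets the one with the highest mean was taken. All 6 genes matched the gene table by Entrez identifier, and 4 had a promoter sequence. Differences are between single arrays, with no test, and their precision is limited by how few arrays there are. The gene that encodes TCF-1 is not reported here.

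The genes and lists were chosen with earlier results of these data known. Named were the 6 genes, 6 further markers of regulatory T cells, and the 3 nearest genes of each of the first 6 that was beyond 2-fold. Some of the listed genes beyond 2-fold were named as well. Others, among them most double-negative and double-positive markers, were counted without being named. Genes named beside these as relatives, flanks or markers were chosen after their values were seen. Simulated arrays with 19938 genes had a noise SD of 0.15, which is a setting and not measured from these data. For TCF-1-deficient minus WT, 100 of 100 genes changed 3-fold and 2 of 100 changed 1.5-fold passed the 2-fold rule. The simulated noise was independent over genes and arrays, whereas 33.6% of genes here had one value on all 3 arrays. These counts follow from the setting and give no error rate for these data. The alternatives were folds of 1.5 and 3, centring, loess (span 0.3), other probe set rules, a filter on dim genes, and leaving out identical values or chromosomes X and Y. Python 3.11.15, NumPy 2.4.6, pandas 2.3.3, statsmodels 0.14.6 and matplotlib 3.10.9 were used.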

Additional observations from a re-analysis of the deposited data

How the results depend on the processing

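Of 72 differences of the 6 genes under centring, loess or another probe set rule, all 72 stayed on their side of 2-fold and moved by under 1.5-fold. This count overstates what was checked. The probe set rules could change Socs2 alone, because each of the other genes has 1 probe set. Centring adds the same constant to every gene of a comparison. Of the 44 that were not 0, 1 changed sign, Capg for transgenic minus WT under centring (0.0015), and so did the median over the 6 genes there (0.040 in place of -0.039). Over these alternatives TCF-1-deficient minus WT ran from 2.21 to 2.34 for Gpr83 and from 1.32 to 1.46 for Izumo1r, and transgenic minus WT from -0.57 to -0.49 and from -0.27 to -0.19.

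Counts followed the fold chosen. Of the 117 genes that are among the 6 or in a pathway or family list, 9 were higher and 12 lower at 2-fold without TCF-1, and 16 and 21 at 1.5-fold. At 3-fold 6 were higher and 4 lower. With the transgene 0 were higher and 1 lower than WT at 2-fold, 1 and 7 at 1.5-fold, and 0 and 0 at 3-fold. Transgenic minus TCF-1-deficient gave 10 higher and 11 lower at 2-fold, 18 and 15 at 1.5-fold, and 4 and 7 at 3-fold. Over all genes, 1.5-fold gave 806 higher and 1376 lower without TCF-1, 97 and 133 with the transgene, and 1255 and 878 between the mutants. At 3-fold these were 107 and 175, 11 and 7, and 177 and 118. Centring, the filter on dim genes and leaving out chromosomes X and Y moved no count over the 117 genes or over all genes by over 1.5 times where they were run, nor did loess for the 117 genes. Leaving out identical values could not change a count, because a difference of 0 never passes a fold rule. For the single lists without TCF-1, a check of centring added after seeing the data took the higher dendritic markers from 1 to 3 and the lower γδ, innate-like and NK markers from 1 to 0. The other list counts moved by 1 at most: Rel (-0.89) and Aqp11 (-0.92) were no longer 2-fold lower, and Ebf1 (1.08) became 2-fold higher. No paired analysis was possible because each genotype has 1 array.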
